A study of Daphnia magna with 56 samples.

Results

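A set of 100 messenger RNA records of Daphnia magna tended to be lower at higher gamma dose rates after 8 days of exposure. After 4 days their rank correlations with dose rate were below 0.3 in size. They were 100 of the 23570 transcript records counted in the series. They were selected on the measured values themselves, the levels in all 56 libraries. Levels were CPM, each count divided by the library's total and put on the usual scale of CPM, taken as log2(CPM + 0.5). A record could be chosen if its mean over the 56 libraries lay between 5 and 1000 CPM, if its unexposed level changed by less than 1 log2 unit between days, and if its Spearman correlation with the rank of the dose rate on day 4 was below 0.3 in size. Of the 5169 records that met these limits, the 100 with the lowest Spearman correlation on day 8 were taken. The direction and order of the day 8 values below are therefore a description of what was chosen and not a finding.

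Daphnia magna is a freshwater crustacean that reproduces clonally in good conditions and is a standard animal of aquatic toxicity testing. The libraries were made from whole wild-type females, labelled as juveniles of 4 or 8 days of age, kept in M7 culture medium. Each day had 4 libraries at each of 7 dose rates, namely 0 (the unexposed control), 0.4, 1, 4, 10, 40 and 100 mGy/h, so exposure had lasted as long as the stated age. The labels do not say how many animals went into a library, or whether replicates came from separate cultures, so p-values measure the spread between these libraries, which may be technical.

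Ionizing radiation breaks DNA directly and through reactive oxygen species formed from water, and animal cells answer with DNA repair, cell cycle arrest or cell death. With continuous exposure the accumulated dose grows with both dose rate and time, so a later sample has received more dose at the same dose rate. In young Daphnia these days also span moults, rapid growth and the approach to the first brood. The records carried no gene descriptions in the sources used here, and 75 of the 100 matched a locus symbol, all of them LOC numbers. The functions of the transcripts are therefore not given, and they are ordered by how they behaved.

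Depth was even. Library totals ran from 13285376 to 14243541 counts on day 4 and from 14032254 to 14986499 on day 8. A single transcript, XM_032923507.1, took between 0.409% and 2.48% of the counts on day 4 but between 9.22% and 18.7% on day 8, with 11.7% ± 1.29 in the day 8 controls and 14.4% ± 2.33 at 100 mGy/h (SD, n = 4 each). CPM on library totals, which chose the members, moves with such a share. Levels and fold changes below were therefore scaled with TMM factors, which set the bulk of transcripts equal between libraries of a day. Day 8 TMM factors were 1.04 ± 0.0467 in controls and 0.993 ± 0.038 at 100 mGy/h (SD, n = 4 each).

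The average difference was small, and with TMM scaling the mean lay below the control from 4 mGy/h upward. The mean log2 level of the 100 transcripts, set to 0 for the control mean, was 0.039 ± 0.077 and 0.046 ± 0.083 (SD, n = 4 each) in the groups given 0.4 and 1 mGy/h. For 4, 10 and 40 mGy/h the mean levels were -0.063 ± 0.095, -0.11 ± 0.10 and -0.18 ± 0.067. The highest dose rate had -0.32 ± 0.059. The groups up to 10 mGy/h overlapped broadly with the controls, which themselves ran from -0.11 to 0.092. The 40 mGy/h libraries, from -0.25 to -0.090, overlapped them at the edge. The 100 mGy/h libraries, from -0.38 to -0.26, all lay below every control. In whole animals, fewer cells of a type and less RNA per cell cannot be told apart.

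**Figure D1:**
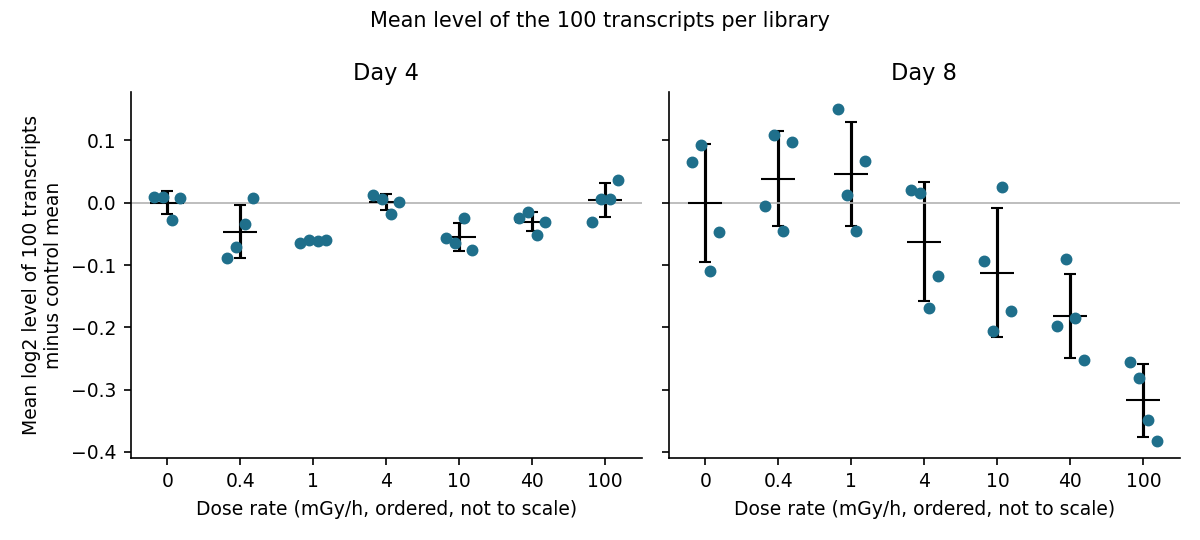
Mean log2 level of the 100 transcripts in each library (points) minus the control mean, by dose rate on day 4 and day 8, with group mean and SD (bars, n = 4). On day 8 the 100 mGy/h libraries lie between -0.38 and -0.26, below every control, while on day 4 the libraries lie between -0.088 and 0.036.

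Without TMM scaling the mean was below the control at every exposed dose rate. On library totals the mean levels from 0.4 up to 100 mGy/h were -0.029, -0.076, -0.093, -0.14, -0.27 and -0.38, so the step from 1 to 4 mGy/h was the smallest and the step from 10 to 40 mGy/h the largest. The direction at the lowest dose rates thus depended on the scaling, and the direction at 40 and 100 mGy/h did not. The size there did, with means of -0.18 and -0.32 under TMM scaling against -0.27 and -0.38 on library totals. Applying the same rule to TMM-scaled CPM kept 61 of the 100 records.

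Transcript by transcript, the same order held at the top of the range. The median edgeR log2 fold change against the control for 0.4 and 1 mGy/h was 0.049 and 0.047, and 25 and 24 of the 100 transcripts lay below 0. For 4, 10 and 40 mGy/h the medians were -0.058, -0.099 and -0.17, with 82, 98 and 100 transcripts below 0. At 100 mGy/h the median was -0.30, which is a level 18.6% lower, and the range ran from -0.93 to -0.11. The median over all 9367 transcripts tested on day 8 was 0.015 at 100 mGy/h. From 0.4 up to 40 mGy/h, 49.1%, 50.0%, 46.5%, 46.3% and 48.0% of all tested lay below 0. None of the 100 was more than 2-fold lower and 4 were more than 1.5-fold lower.

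With TMM scaling the descent was not a straight ramp, and the place of its steps depended on that scaling, as the means on library totals show. The step from 40 to 100 mGy/h held the largest drop for 52 transcripts, and the step from 1 to 4 mGy/h for 29. Only 10 had it between 10 and 40 mGy/h, 7 between 4 and 10 mGy/h and 2 between 0 and 0.4 mGy/h. At 10 mGy/h the median transcript had covered 32.4% of its log2 fall at 100 mGy/h, and at 40 mGy/h 55.5%. The highest group was 1 mGy/h for 43 transcripts, 0.4 mGy/h for 38 and the control for 19. Every step was downward in 5 transcripts.

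**Figure D2:**
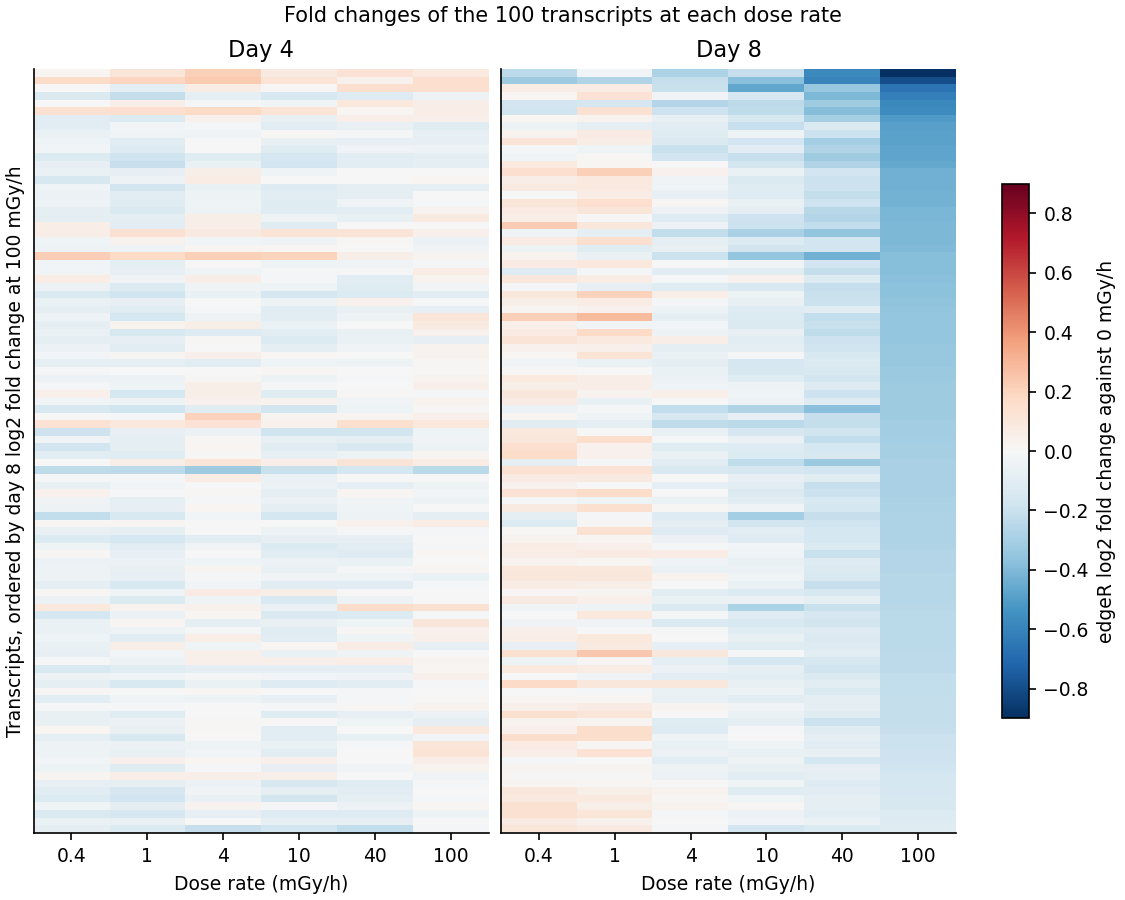
edgeR log2 fold change against the same day's control (colour) for the 100 transcripts (rows, ordered by day 8 fold change at 100 mGy/h) at each exposed dose rate (columns). On day 8, 75 transcripts are above the control at 0.4 mGy/h and all 100 are below it at 40 and 100 mGy/h; on day 4 the colours stay pale at all dose rates.

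Counts of calls, except those by DESeq2, are given beside the share over all transcripts tested. Since the day 8 dose-rate contrast chose the members, nothing is read from any of these counts. A falling slope on dose-rate rank had an edgeR adjusted p under 0.05 in 93 of the 100, where 3.28% of all tested transcripts did. The median slope was -0.052 log2 units per dose-rate step, with a range from -0.13 to -0.025, against 0.00010 over all tested. At 100 mGy/h, 42 of the 100 were called lower, against 1.4% of all tested, and 72 had all 4 exposed libraries below all 4 controls, against 8.33%. At 40 mGy/h, 19 of the 100 lay below all controls, against 1.65% of all tested. None was called lower there by edgeR, 36 had an unadjusted p under 0.05 against 2.06% of all tested, and DESeq2 called 2. At 10 mGy/h none was called, with 12 at an unadjusted p under 0.05 against 1.28% of all tested, and 0 by DESeq2.

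The counts of calls differed widely between settings. Those with surrogate variables or with 1 library left out have no share of all transcripts beside them. From these counts alone, a change in the members cannot be told from a change in calling over all transcripts. Without the 100 mGy/h group edgeR called 0 slopes, with 80 at an unadjusted p under 0.05 against 3.79% of all tested, and 1 called by DESeq2. The median slope was then -0.038. With 4 surrogate variables, which are estimated patterns shared by many transcripts, as covariates, 4 slopes and 1 fold change at 100 mGy/h were called, and the median fold change there was -0.20. Leaving out 1 library at a time gave between 7 calls at 100 mGy/h, without control replicate 1, and 57. The surrogate variables together held 30.8% of the variance of the dose-rate rank.

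The transcript with the closest rank correlation was XM_032925984.1 (LOC116919949), with a Spearman coefficient of -0.84. Its day 8 controls were at 70.6, 73.3, 62.7 and 63.1 CPM. At 40 mGy/h it stood at 52.0, 61.1, 52.7 and 49.9 CPM, and at 100 mGy/h at 51.0, 51.5, 48.0 and 43.8 CPM. Each of these 8 exposed libraries was below the lowest control. The edgeR log2 fold change was -0.32 at 40 mGy/h and -0.47 (SE 0.081) at 100 mGy/h. The slope was -0.080 per step (SE 0.011), and fitting surrogate variables left it called, at an edgeR adjusted p of 0.00917. The day 8 dose-rate contrast chose the transcript, so this p-value is a description and no support. The same holds for all day 8 p-values of members given below. On day 4 its level ran from 72.5 CPM in a 1 mGy/h library to 93.9 CPM in a control.

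The next in rank correlation were low to moderate in abundance. XM_032927918.1 (LOC116921574) had 6.07, 6.03, 4.58 and 6.09 CPM in controls and 3.39, 3.80, 4.02 and 3.16 CPM at 100 mGy/h, with no overlap. XM_032941654.1 had 15.2, 16.1, 13.4 and 13.4 CPM in controls and 11.9, 10.5, 10.7 and 10.7 CPM at 100 mGy/h, again with no overlap. XM_032925860.1 (LOC116919811) had 67.6, 68.0, 58.0 and 67.0 CPM in controls, above all 4 values at 100 mGy/h, which were 48.6, 47.1, 52.0 and 45.3 CPM. Their log2 fold changes at 100 mGy/h were -0.66, -0.41 and -0.43. XM_032940867.1 had a shallower fall, from 27.6 ± 1.04 to 23.4 ± 0.793 CPM, and its 2 groups did not overlap.

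A close rank correlation did not need a called difference at 100 mGy/h. XM_032927610.1 had 7.28, 7.54, 5.86 and 5.96 CPM in controls and 5.77, 5.52, 3.89 and 5.22 CPM at 100 mGy/h. Its log2 fold change of -0.43 at 40 mGy/h was larger than the -0.38 (SE 0.15) at 100 mGy/h, and the latter was not called (edgeR adjusted p = 0.156). With surrogate variables fitted its slope had an edgeR adjusted p of 0.0134. XM_032921350.1 (LOC116916146) had 80.4 ± 6.16 CPM in controls and 65.5 ± 1.77 CPM (SD, n = 4 each) at the top dose rate, with no overlap and an edgeR adjusted p of 0.0585. XM_032933812.1 (LOC116926897) had 47.7 ± 6.75 and 34.6 ± 2.85 CPM, which gave -0.46 on the log2 scale (edgeR adjusted p = 0.0236).

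**Figure D3:**
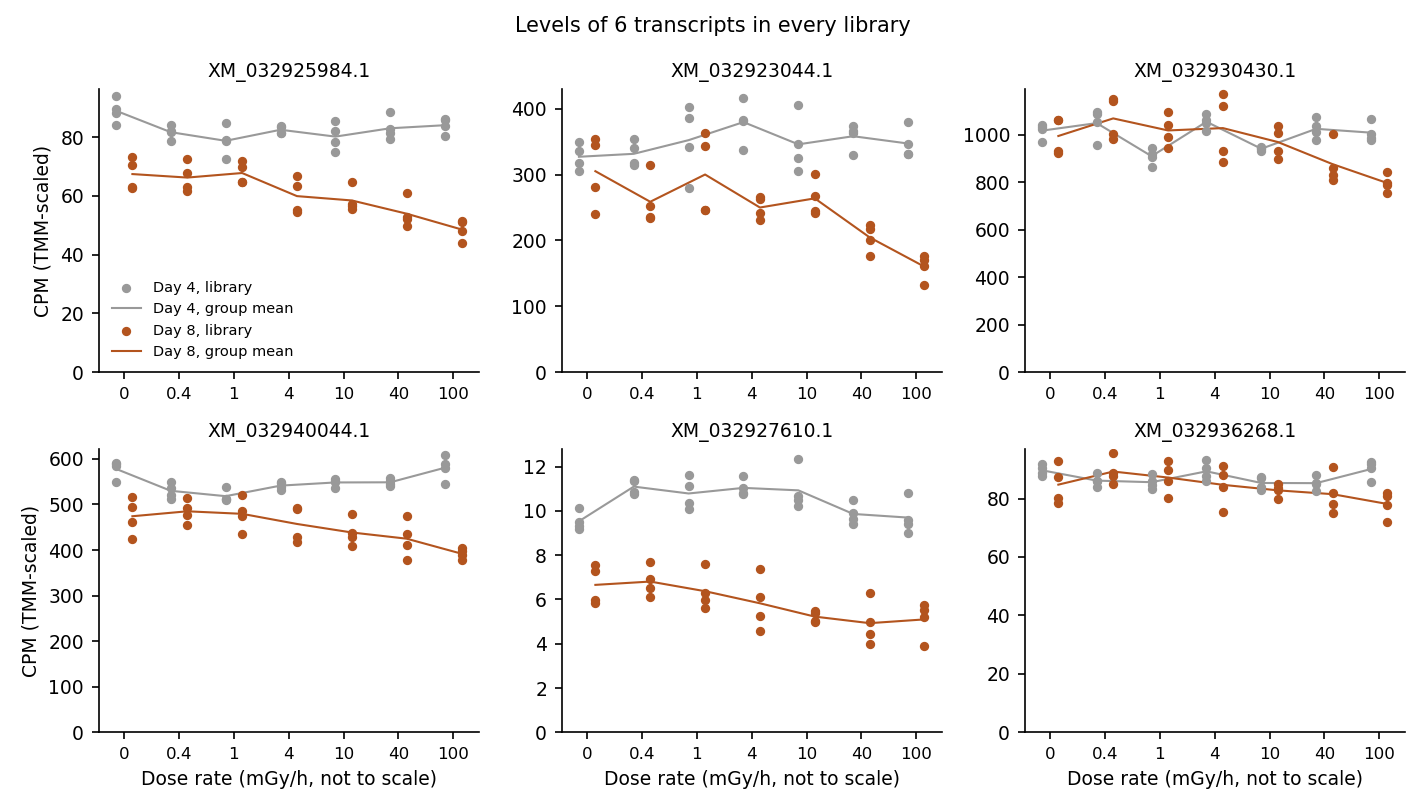
TMM-scaled CPM of 6 transcripts in every library (points) with group means (lines), by dose rate on day 4 (grey) and day 8 (orange). XM_032923044.1 has the largest fall, to between 132 and 177 CPM at 100 mGy/h on day 8; the days were scaled separately, so their levels are not compared.

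The largest falls were those of XM_032923044.1 and XM_032940711.1 (LOC116932821). XM_032923044.1 had 354, 345, 240 and 281 CPM in day 8 controls and 170, 161, 177 and 132 CPM at 100 mGy/h. All 4 exposed libraries were far below the lowest control, and its 40 mGy/h libraries, from 175 to 224 CPM, were below it too. The log2 fold change was -0.58 at 40 mGy/h and -0.93 (SE 0.14, edgeR adjusted p = 0.00237) at 100 mGy/h. XM_032940711.1 had 35.3, 28.7, 23.7 and 34.8 CPM in controls and 17.7, 19.8, 18.5 and 14.5 CPM at 100 mGy/h, also without overlap. Its log2 fold change was -0.80 (SE 0.22, edgeR adjusted p = 0.0499).

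Both of these were already below the control at the lowest dose rate, with log2 fold changes of -0.24 (XM_032923044.1) and -0.32 (XM_032940711.1) at 0.4 mGy/h on day 8. XM_032925234.1 (LOC116919268) had -0.18 at 0.4 mGy/h and -0.58 (SE 0.15) at 100 mGy/h. At 1 mGy/h on day 8 it was above the control, by 0.14, where XM_032923044.1 had -0.024 and XM_032940711.1 had -0.27. None of these differences at 0.4 and 1 mGy/h was called by edgeR. The controls of XM_032925234.1 were 54.9, 49.4, 35.8 and 49.6 CPM and its 100 mGy/h libraries 33.2, 40.7, 28.7 and 24.6 CPM, which overlapped. The within-group deviations of these 3 transcripts, grouped after their values were seen, were correlated pairwise as a description. Over the 28 day 8 libraries r ran from 0.51 to 0.61, where the median over all member pairs was 0.47. Over the 28 of day 4 it ran from 0.42 to 0.73, where that median was 0.12. On day 4 all 3 were above the control at 1 mGy/h, by 0.11, 0.19 and 0.15 on the log2 scale, where most of the 100 were below it. These 3 day 4 differences were not called by edgeR.

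More widely, 25 of the 100 transcripts lay below the control at 0.4 mGy/h on day 8. Of these, 13 were above the control at 1 mGy/h on day 4. Among the other 75, 6 were. The split was made after seeing the values and was not tested. The median fold change at 100 mGy/h on day 8 was -0.32 in the 25 and -0.29 in the 75.

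XM_032932857.1 completed the falls past 1.5-fold with XM_032927918.1, XM_032923044.1 and XM_032940711.1. It had tight controls of 32.6, 31.8, 30.8 and 30.9 CPM and 21.9, 22.8, 19.7 and 18.2 CPM at 100 mGy/h. Its 40 mGy/h libraries, from 20.2 to 27.5 CPM, were below every control as well. The log2 fold changes were -0.40 at 40 mGy/h and -0.61 (SE 0.11, edgeR adjusted p = 0.00532) at 100 mGy/h. XM_032924514.1 had 11.4, 9.97, 9.62 and 10.1 CPM in controls and between 5.49 and 7.53 CPM at 100 mGy/h, with no overlap. Its slope was -0.075, and it had an edgeR adjusted p of 0.0475 once surrogate variables were fitted.

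At the other end, 4 transcripts barely differed between 0 and 100 mGy/h. XM_032933426.1 (LOC116926500) had 45.0, 45.3, 46.1 and 43.6 CPM in controls and between 38.9 and 44.7 CPM at 100 mGy/h. These groups overlapped, and the log2 fold change of -0.11 (SE 0.10) was not called (edgeR adjusted p = 0.583). XM_032936268.1 (LOC116929115), XM_032942198.1 (LOC116934734) and XM_032924075.1 (LOC116918372) had log2 fold changes of -0.12, -0.12 and -0.14, none called (edgeR adjusted p = 0.343, 0.295 and 0.262). The groups at 0.4 and 1 mGy/h stood above the control in the outermost of these, by 0.11 and 0.080 for XM_032933426.1 and by 0.14 and 0.055 for XM_032924075.1.

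**Figure D4:**
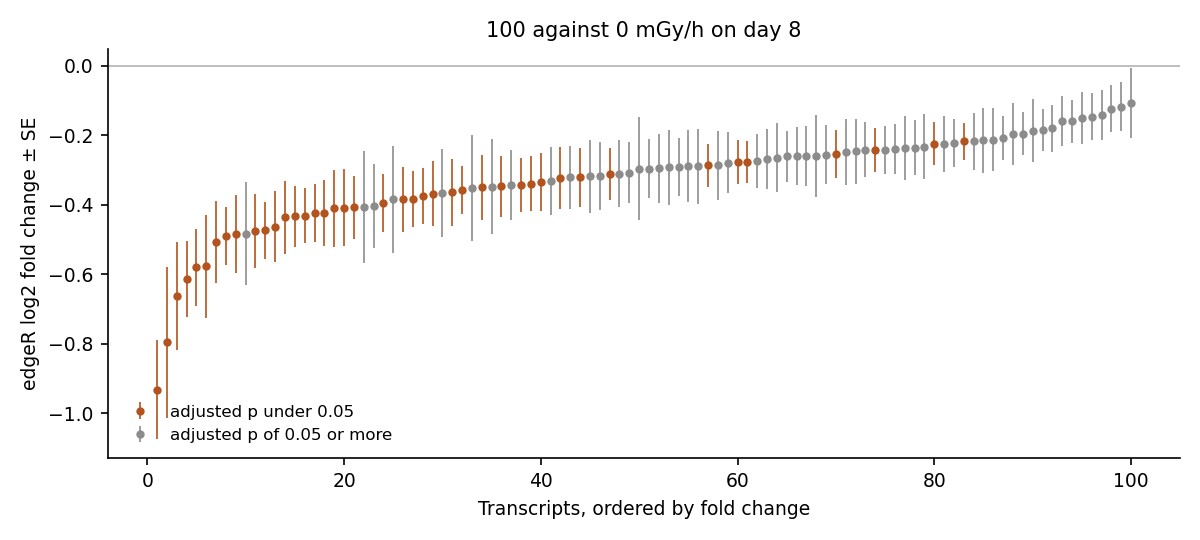
edgeR log2 fold change at 100 against 0 mGy/h on day 8 (points) with its standard error (bars) for the 100 transcripts in order of size. The values run from -0.93 to -0.11, and 42 transcripts (orange) have an adjusted p under 0.05.

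The most abundant members differed by similar amounts. XM_032930430.1 (LOC116923859) had 1062, 1061, 931 and 925 CPM in day 8 controls and 843, 798, 755 and 788 CPM at 100 mGy/h, with no overlap. Its log2 fold change was -0.32 (SE 0.091, edgeR adjusted p = 0.0577). XM_032934899.1 (LOC116927862) had 765, 695, 599 and 628 CPM in controls and 547, 506, 484 and 466 CPM at the top dose rate, and its log2 difference was -0.42 (SE 0.083, with an edgeR adjusted p of 0.0114). XM_032924181.1 (LOC116918465) had 556 ± 26.2 and 456 ± 5.36 CPM (SD, n = 4 each), which on the log2 scale was -0.29, with an edgeR adjusted p of 0.0217. With surrogate variables fitted its slope had an edgeR adjusted p of 0.0452.

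XM_032931732.1 (LOC116925109) and XM_032926011.1 (LOC116919971), also among the 5 most abundant, had log2 fold changes of -0.18 and -0.33 at 100 mGy/h, which missed the threshold with edgeR adjusted p-values of 0.134 and 0.0634. The 100 mGy/h libraries of both lay below their controls. For XM_032926011.1 they were 579, 559, 511 and 522 CPM against 754, 740, 609 and 626 CPM. For XM_032931732.1 they were 640, 644, 626 and 594 CPM against 727, 757, 648 and 704 CPM.

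The members at the limit of the choice looked like the rest. The last 3 inside, XM_032923575.1, XM_032938450.1 and XM_032922948.1, each had a day 8 Spearman coefficient of -0.639. The first 3 outside, XM_032943794.1, XM_032938229.1 and XM_032931044.1, had -0.637, -0.634 and -0.634. The log2 fold changes of the 3 inside at 100 mGy/h were -0.22, -0.40 and -0.25, and only XM_032938450.1 was called (edgeR adjusted p = 0.0189).

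To see the size of the fall in libraries that had no part in the choice, the rule was repeated without replicate 1, 2, 3 or 4 of every day 8 group. Between 67 and 77 of the 100 records were chosen again each time. In the 7 libraries left out, the median slope of the newly chosen 100 was -0.045, -0.049, -0.017 and -0.060 log2 units per step, compared with -0.050, -0.054, -0.061 and -0.046 in the 21 libraries used. The left-out slope was negative in 97, 96, 79 and 95 of the 100, where 52.8%, 55.6%, 48.3% and 54.0% of all eligible records had a negative slope in the same libraries. The 100 members moved together within day 8 groups (median pair correlation 0.47), so these are not counts of independent results. The left-out libraries may also be technical replicates of those used. Replicate 3 gave the shallowest left-out slope. Its control had the largest TMM factor of day 8, 1.10, and the lowest mean member level of any control, -0.11. Its part in that slope was not tested.

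**Figure D5:**
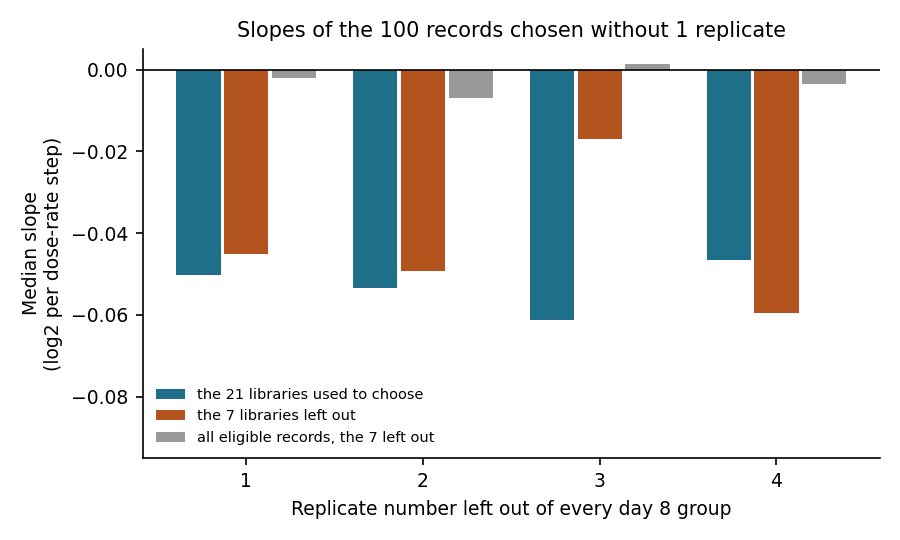
Median slope on dose-rate rank (log2 units per step) of the 100 records chosen without 1 replicate of every day 8 group, in the 21 libraries used and in the 7 left out, with the median of all eligible records in the 7 left out. The left-out slopes are negative each time, from -0.060 for replicate 4 to -0.017 for replicate 3.

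The transcripts also moved together between replicates of the same dose rate. On day 8 the median pairwise correlation of within-group deviations was 0.47 over the 4950 pairs of members, and 94.2% of pairs were positive. Over pairs of all 5168 eligible records tested on both days the median was 0.0017. These correlations are a description over 28 libraries that share their scaling, and day 8 values chose the members. The day 4 libraries entered the choice too, through the limits on the day 4 rank correlation, the unexposed difference and the mean level. There the median over member pairs was 0.12, with 69.1% of pairs positive, against 0.0028 and 50.4% over all eligible pairs.

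The coherence was uneven among members. On day 8 the deviations of 78 transcripts correlated above 0.5 with the mean of the other 99, led by XM_032926011.1 at 0.97. XM_032938497.1 (LOC116931028) was the only one below 0, at -0.14. On day 4, 23 transcripts exceeded 0.5, led by XM_032926550.1 (LOC116920337) at 0.87, and 12 were below 0, the lowest being XM_032940711.1 at -0.28. With TMM scaling, control libraries also differed more on day 8: the SD of the mean member level over the 4 controls was 0.095 on day 8 and 0.018 on day 4. On library totals these SDs were closer, at 0.051 and 0.031. A larger day 8 spread was not particular to the members. The median within-group SD of log2 levels was 0.15 on day 8 and 0.088 on day 4 over the eligible records tested. In the members it was 0.12 and 0.066.

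The rule held the straight day 4 trend near 0 but left the other differences between day 4 groups free. A joint edgeR test of the 5 polynomial terms beyond the straight trend asked whether the day 4 group means departed from a line. It called 2 of the 100 transcripts, where 2.42% of the 9369 tested were called, a share close to the background. An unadjusted p under 0.05 was found for 36 of the 100 and for 19.8% of all tested. DESeq2 called 16 of the 100 and 8.73% of all.

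The pair called on day 4 were XM_032930430.1 and XM_032940044.1. XM_032930430.1 had 1032, 969, 1042 and 1025 CPM in day 4 controls. The 1 mGy/h libraries had 865, 921, 946 and 906 CPM, and the 10 mGy/h libraries had 939, 931, 948 and 945 CPM. Both exposed groups lay below every control, while at 4 mGy/h the range of 1017 to 1087 CPM overlapped them (departure from a straight trend, edgeR adjusted p = 0.0049). XM_032940044.1 (LOC116932272) had 588, 591, 549 and 584 CPM in controls and 510, 538, 512 and 512 CPM at 1 mGy/h, with no overlap. At 100 mGy/h it was back among the controls, at 544, 588, 581 and 609 CPM (edgeR adjusted p = 0.00817). Its day 8 pattern differed, with 474 ± 39.7 CPM (SD, n = 4 each) in controls, while the groups given 1 and 100 mGy/h had 479 ± 34.8 and 392 ± 11.8 CPM.

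The other transcripts named for small p-values in that test were not called. They were XM_032922753.1 (LOC116917299), XM_032933812.1 and XM_032927282.1, with edgeR adjusted p-values of 0.0505, 0.0614 and 0.0626. On day 4 XM_032922753.1 had 38.4, 39.7, 42.4 and 42.5 CPM in controls and 34.7, 35.7, 37.4 and 36.5 CPM at 1 mGy/h, without overlap. XM_032933812.1 had 57.2, 54.8, 53.5 and 59.9 CPM in controls and 46.2, 50.6, 48.3 and 49.7 CPM at 1 mGy/h, also without overlap. XM_032927282.1 was lowest at 100 mGy/h, with 309, 330, 342 and 354 CPM against 358, 340, 354 and 350 CPM in controls, and these groups overlapped.

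Over the 100 members, levels at some day 4 dose rates lay slightly below the control. The median log2 fold change for 0.4, 1, 10 and 40 mGy/h was -0.049, -0.074, -0.068 and -0.034, with 81, 81, 78 and 74 transcripts below 0. It was -0.0040 at 4 mGy/h and 0.0015 at 100 mGy/h. At 1 mGy/h, 23 of the 100 had all exposed libraries below all controls, against 4.64% of all tested, and edgeR called 2 lower, XM_032933812.1 and XM_032940044.1, against 0.224%. DESeq2 called 12 lower there and 3 at 10 mGy/h. Its share over all tested transcripts was not computed for these dose rates, so nothing is read from these counts. At 10 mGy/h 17 were below all controls, against 4.07%. All of these comparisons share the same 4 controls. The 10 mGy/h libraries all belonged to the 8 of day 4 with the larger totals, from 13955640 counts upward, so dose rate and library total cannot be told apart there.

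The rule kept only records whose unexposed level differed by less than 1 log2 unit between days, so a small difference was set by the choice. On library totals the day 8 controls were lower than the day 4 controls by a median of -0.22 log2 units, against -0.34 over all eligible records. With TMM factors computed over all 56 libraries the medians were 0.11 and -0.025, so the sign for the members depended on the scaling. Under both, the members were higher on day 8 relative to the eligible records. The day 8 controls enter both this difference and the choice of members.

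By their loci in the RefSeq annotation of assembly ASM2063170v1.1, the 75 matched members lay on 10 linkage groups. LG4 held 13 of them, 17.3% against 10.3% of the eligible records placed, and LG7 held 11, 14.7% against 8.73%. LG6 and LG9 held 2 each, 2.67% against 9.83% and 5.44%. These shares were not tested. No locus symbol was shared by 2 records. The closest pair was XM_032926011.1 (LOC116919971) and XM_032926000.1 (LOC116919964), with 1 protein-coding gene between them. XM_032926000.1 had 91.7 ± 3.40 CPM in day 8 controls and 72.5 ± 2.84 CPM (SD, n = 4 each) at the top dose rate, and its log2 difference was -0.34 (SE 0.079, with an edgeR adjusted p of 0.0283). XM_032921350.1 and XM_032922948.1 (LOC116917484) had 2 genes between them.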

How the data were processed

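Whole-animal RNA was sequenced as read pairs of 100 bp on a BGISEQ-500 instrument, per the labels' protocols. The deposited values were raw read counts per RefSeq transcript record, in a table for each day, and the submitters' processing notes name HISAT. The counting program, the genome build, strandedness and the treatment of reads shared between transcripts are not given in the sources used here, so levels of records with near-identical copies are uncertain. All 56 columns were matched to libraries by the codes in their labels. No libraries were duplicates (smallest chi-square per degree of freedom 6.85 on day 4 and 24.1 on day 8, over records with a summed count of at least 20).

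The members, lists and tests were chosen with earlier results of these data known. Counts were fitted in R 4.3.3 with edgeR 4.0.16 (filterByExpr, TMM, glmQLFit and glmQLFTest, 2-sided) on the 28 libraries of a day. All 100 members passed the filter on both days. P-values were Benjamini-Hochberg adjusted over all transcripts tested, and under 0.05 was called. Standard errors were the fold change divided by the root of F. The departure test used contrasts of group means that are 0 on a straight line of dose-rate rank. The models were run on simulated counts with slopes and shifts larger than those of the median member. Effects of the size seen in most members were therefore not examined. Alternatives used DESeq2 1.42.0, sva 3.50.0, other scalings, no filter, a replicate block and fits without each library. Levels were TMM-scaled CPM within a day.

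Named transcripts were, among the members, the 8 lowest Spearman coefficients, the 6 largest and 4 smallest falls at 100 mGy/h, the 5 highest mean CPM, the 5 smallest p-values of the day 4 departure test and the last 3 inside the limit, 28 in all; others named were chosen after their values were seen. Symbols were matched with versions ignored. With 75% of members matched, checks of gene length were void, and lists by gene function were not run.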

Additional observations from a re-analysis of the deposited data

Results flagged for a closer look

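In groups of 4 libraries, a value whose gap to its nearest neighbour exceeded Dixon's 95% limit was set apart. Chance does this in about 1 in 20 groups, which is 3.5 of the 70 groups examined, and 4 were found. The mean member level of 1 day 4 control, -0.028, lay below the other 3. XM_032927918.1 had 1 low day 8 control at 4.58 CPM. XM_032925860.1 had 1 low day 8 control at 58.0 CPM. XM_032941654.1 had 1 high library at 100 mGy/h on day 8, at 11.9 CPM. The low controls of XM_032927918.1 and XM_032925860.1 were replicate 3, and both stayed above all 4 libraries at 100 mGy/h.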

How the results depend on the processing

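The median day 8 slope and fold change at 100 mGy/h were negative in every setting run, and the counts of calls were less stable. The day 8 values chose the members, so this sign, here and for the named slopes below, is a description and no support. The counts below are given without the share of all transcripts called in each setting. From these counts alone, a change in the members therefore cannot be told from a change in calling over all transcripts. With surrogate variables the falling slopes called went from 93 to 4, the calls at 100 mGy/h from 42 to 1 and those of the day 4 departure test from 2 to 1, and the median slope and fold change moved to -0.031 and -0.20. Without the 100 mGy/h group, a setting chosen after seeing the data, 0 slopes were called. Calls at 100 mGy/h numbered 69 on library totals (median fold change -0.36), 64 with DESeq2 and 23 with only the 8 libraries at 0 and 100 mGy/h. DESeq2 called 16 in the day 4 departure test. The rule kept 61 members on TMM-scaled totals and 58 with factors over all 56 libraries (chosen after seeing the data). Leaving out 1 library at a time gave 58 to 98 falling slopes, 7 to 57 calls at 100 mGy/h, 2 to 6 day 4 calls, a median slope from -0.057 to -0.048 and a median fold change from -0.35 to -0.28. Calls at 100 mGy/h fell to 7, 9 and 25 without control replicate 1, 2 or 4, and to 25, 18, 22 and 9 without 100 mGy/h replicate 1, 2, 3 or 4; slopes fell to 59 and 58 without 100 mGy/h replicate 3 or 4. Day 4 calls rose to 4 without 1 mGy/h replicate 3 or 40 mGy/h replicate 4, and to 6 and 5 without 100 mGy/h replicate 1 or 3. The cause was not tested. Of 980 slopes of the 28 named transcripts under alternatives, 873 stayed on their side of the threshold, 93 lost the call, 14 gained it and none changed sign. These alternatives included 28 fits with 1 library left out, which share nearly all their libraries. With surrogate variables 21 of the 28 transcripts lost the call, and without the 100 mGy/h group 25 did. Same-numbered libraries did not deviate together: 29 of 84 pairs on day 4 and 37 of 84 on day 8 had a correlation over 0.1, and 4 and 8 of 28 libraries were closest to their own number. With the replicate block, 92 slopes (median -0.052), 32 fold changes at 100 mGy/h (median -0.30) and 3 day 4 departures were called.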
